A study of Mus musculus with 10 samples.

Results

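Integrin subunits, laminin chains and nidogens form the set described here, in whole lungs of mouse embryos with and without epithelial Hdac3. The 36 genes were chosen by symbol, and 35 had a probe set annotated to that gene alone, of 17919 genes measured on the array. They comprised 15 of 16 integrin alpha subunits, 8 integrin beta subunits, 10 laminin chains and 2 nidogens. Itga10 was not analysed here.

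Laminins are heterotrimers of an alpha, a beta and a gamma chain that polymerise into the sheet of the basement membrane, and nidogens bridge that sheet to the collagen IV network. Integrins are alpha and beta heterodimers that hold cells to laminin, collagen, fibronectin or, on leukocytes, to other cells. In the lung, the epithelium and the capillary endothelium lie on basement membranes that partly fuse at the gas exchange surface, and laminins with the alpha 5 chain are abundant there.

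The series held 10 lungs at E18.5, 1 array each. The 5 Hdac3 knockout lungs were labelled ShhCre with Hdac3 fl/fl, and the 5 control lungs ShhCre without an Hdac3 allele in the label. Dams were Hdac3 fl/fl and sires Hdac3 fl/+ with ShhCre, so every embryo carried at least 1 floxed allele, and a control with ShhCre from this cross would be heterozygous for the deletion. All lungs were of C57BL/6 and 129X1,129S6 background. ShhCre is a Cre recombinase driven from the Shh locus, which is active in the lung epithelium, while the endothelium, smooth muscle, fibroblasts and leukocytes of the same lung keep Hdac3. Levels are log2 values after RMA, a change is knockout minus control on that scale, and a gene is said to have risen or fallen where limma gave an adjusted p under 0.05 over all genes. The whole lung was measured, so fewer cells of a type and less RNA per cell cannot be told apart in any value below.

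Hdac3 itself had levels of 10.57, 10.54, 10.61, 10.34 and 10.43 in knockout lungs 1 to 5, against 10.80, 10.90, 10.80, 10.67 and 10.90 in control lungs 1 to 5. It fell by 0.31 ± 0.07 (SE; limma adjusted p = 0.0203), a call that ended without control 2 or control 5 (adjusted p = 0.0526 and 0.0545). Whether its probe set lies in the deleted exons is not known here, so the fall is no check of the deletion itself. The lung epithelial regulator Nkx2-1 (10.97 and 11.01), the surfactant gene Sftpc (13.44 and 13.46) and the endothelial gene Pecam1 (11.22 and 11.25) were present in knockout and control lungs at those mean levels.

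Of the 35 measured genes, 1 rose, Lama5, and 2 fell, Itga7 and Itgb2. These 3 are 8.57% of the set; of all 17919 genes, 3.12% were called, 1.54% as higher and 1.58% as lower. The median change of the set was -0.023, against 0.004 for all genes, and 15 members had a change above 0 and 20 below. The same 3 were called with the replicate number as a block, which called 4.72% of all genes. At an unadjusted p under 0.05 there were 7 members, 3 higher and 4 lower, against 13.5% of all genes. The knockout and control lungs did not overlap for 4 members, against 5.11% of all genes: Lama5 was higher in every knockout lung (2.44% of all genes), and Itga7, Itgb2 and Itga6 were lower (2.66%). For the 32 members that did not pass the test, the 95% interval of the change stayed within a fold of 1.2 in either direction for 28 and within a fold of 1.5 for all 32. The widest of these intervals, that of Itgb6, ran from -0.37 to 0.30.

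**Figure D1:**
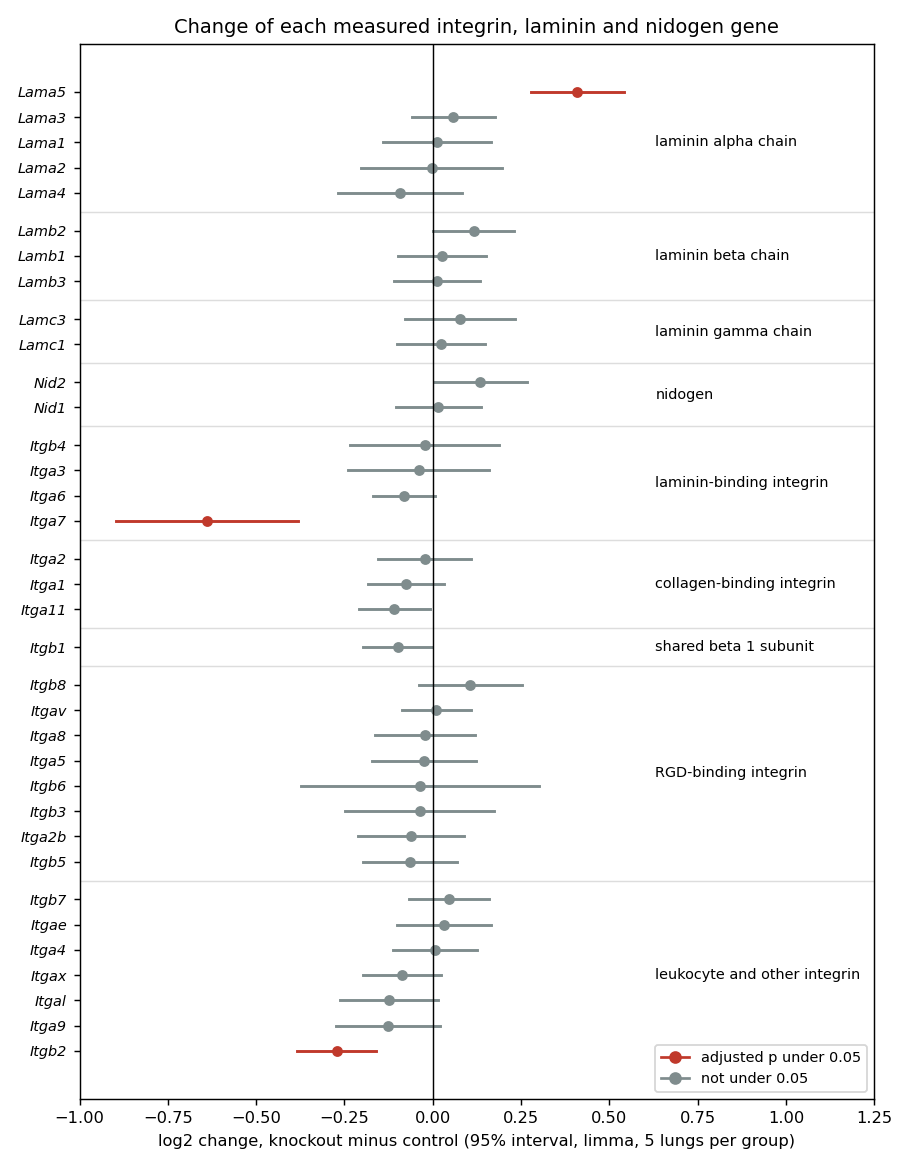
Log2 change (knockout minus control) of each of the 35 measured genes with its 95% interval from limma, 5 lungs per group, grouped by role. Lama5 lies at 0.41, Itga7 at -0.64 and Itgb2 at -0.27 (red); the other 32 genes (grey) lie between -0.13 and 0.13.

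Lama5, the laminin alpha 5 chain, was the gene of the set that rose. Of the 36 listed genes, 23 matched the RefSeq promoter table. The bases before the start sites of Lama5 and of Lamb2, a beta chain that assembles with alpha 5, are shown because Lama5 passed the test and Lamb2 did not. Both are 250 bases long, 5′ to 3′ on the gene's strand, in build GRCm38.p6, and capitals mark the GC box (GGGCGG, or CCGCCC on the other strand). Lama5 lies on the minus strand (chr2:180225860-180226109) and Lamb2 on the plus strand (chr9:108479612-108479861).
Lama5: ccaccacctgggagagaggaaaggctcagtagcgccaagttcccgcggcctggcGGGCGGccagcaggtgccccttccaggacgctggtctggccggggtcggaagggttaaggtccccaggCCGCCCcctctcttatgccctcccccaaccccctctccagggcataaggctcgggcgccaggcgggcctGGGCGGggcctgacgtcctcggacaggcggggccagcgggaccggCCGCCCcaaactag
Lamb2: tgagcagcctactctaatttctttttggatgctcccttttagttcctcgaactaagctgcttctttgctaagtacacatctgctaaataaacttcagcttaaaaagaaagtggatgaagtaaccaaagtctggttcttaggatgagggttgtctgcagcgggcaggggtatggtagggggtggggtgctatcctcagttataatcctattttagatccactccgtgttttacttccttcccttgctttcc

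The Lama5 window was 72.4% G and C with 4 GC boxes, and the Lamb2 window 43.6% with 0. Across 32851 RefSeq windows of the same length the median was 52.4%, and 32.7% held a GC box. Neither window held a TATA box (TATAAA, in 12.4% of all windows), a CCAAT box (CCAAT, in 33.8%) or an AP-1 site (TGANTCA, in 6.75%), each searched on both strands. The 4 matches in the Lama5 window do not overlap one another, and a match is a description of the sequence only.

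The levels of Lama5 were 11.43, 11.33, 11.34, 11.20 and 11.28 in knockout lungs 1 to 5, against 10.93, 10.99, 11.01, 10.78 and 10.83 in control lungs 1 to 5. Every knockout lung was above every control lung, and lungs 4 and 5 were the lowest within each group. The mean was 11.32 ± 0.08 in knockout and 10.91 ± 0.10 in control lungs (SD, n = 5 each), a change of 0.41 ± 0.06 (SE; 95% interval 0.28 to 0.54; limma adjusted p = 0.00248), or 132.8% of the control level. Between lungs of the same number the difference ran from 0.33 to 0.50. An exact two-sided permutation test of the 10 lungs gave p = 0.00794, the smallest this design allows. Every gene without overlap between the groups (5.11% of all genes) gets this value, so it repeats the lack of overlap.

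The beta and gamma chains that assemble with alpha 5 did not pass the test. Lamc1, the gamma chain of most lung laminins, had a change of 0.02 (95% interval -0.10 to 0.15), and Lamb1 had 0.03 (-0.10 to 0.15). Lamb2, a beta chain of mature basement membranes that is given by lung after its values were seen, had 10.73, 10.63, 10.68, 10.65 and 10.87 in knockout lungs, against 10.55, 10.58, 10.62, 10.58 and 10.64 in control lungs. Its change was 0.12 ± 0.05 (SE; limma adjusted p = 0.362), higher in 5 of 5 same-numbered pairs, and the groups overlapped. The upper ends of the Lamb1, Lamb2 and Lamc1 intervals (0.15, 0.23 and 0.15) lay below the lower end of the Lama5 interval (0.28); the difference between chains was not tested.

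The other alpha chains did not pass either. Lama4, the alpha chain of endothelial basement membranes, had the most negative change of the laminins. Its levels were 11.45, 11.50, 11.38, 11.12 and 11.38 in knockout lungs, against 11.52, 11.57, 11.51, 11.24 and 11.45 in control lungs. It was lower in 5 of 5 same-numbered pairs, by 0.07 to 0.13, yet lung 4 of each group lay well below the rest and the groups overlapped (change -0.09 ± 0.08, SE; limma adjusted p = 0.706, and 0.296 with the replicate number as a block). Lama3, the alpha chain of epithelial laminin anchored by hemidesmosomes, had a change of 0.06 and its partner Lamb3 had 0.01. Lama1, the alpha chain of early embryonic membranes, had 0.01, Lama2, the alpha chain around muscle, -0.003, and Lamc3 0.08, with adjusted p from 0.727 to 0.994 in these 5 genes.

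The nidogens also did not pass the test. Nid2 had levels of 9.83, 9.85, 9.77, 9.63 and 9.89 in knockout lungs, against 9.65, 9.76, 9.62, 9.55 and 9.72 in control lungs. It was higher in 5 of 5 same-numbered pairs, with overlap between the groups and a change of 0.13 ± 0.06 (SE; limma adjusted p = 0.352). Nid1 had a change of 0.02 from its brighter probe set and -0.05 from its second, neither passing (adjusted p = 0.954 and 0.737 with every probe set tested).

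**Figure D2:**
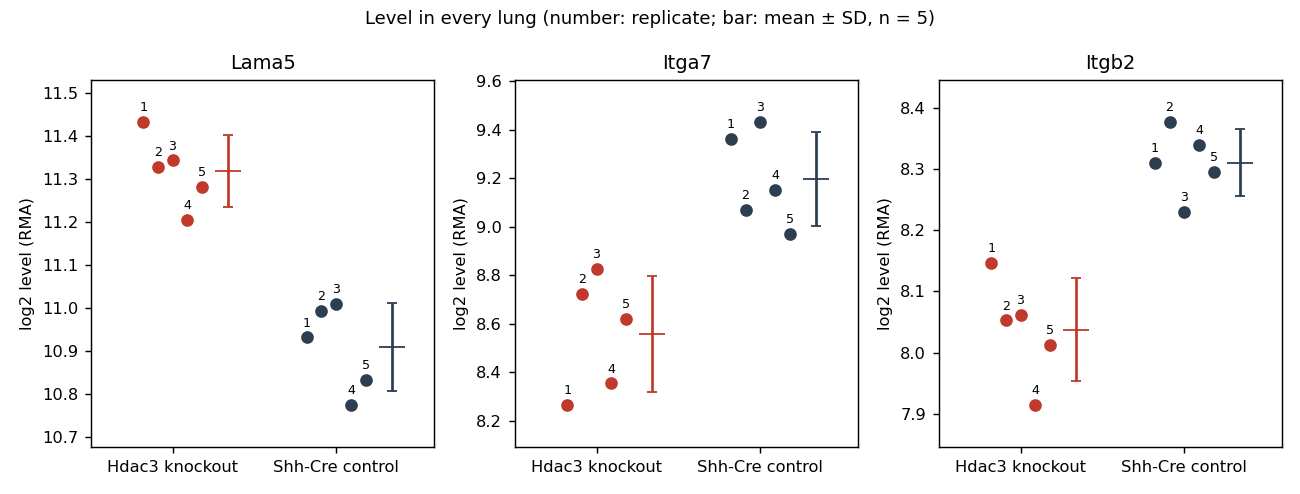
Log2 level of Lama5, Itga7 and Itgb2 in each of the 5 knockout (red) and 5 control lungs (dark), numbered by replicate, with mean ± SD beside the points; the axes do not start at 0. The groups do not overlap in any panel: Lama5 is higher in knockout lungs (11.20 to 11.43, against 10.78 to 11.01), Itga7 (8.27 to 8.83, against 8.97 to 9.43) and Itgb2 (7.92 to 8.15, against 8.23 to 8.38) lower.

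Among the laminin receptors of the integrin family, Itga7 fell, with the largest change of the 35 genes. Itga7 (chromosome 10) encodes the alpha subunit that pairs with Itgb1 on muscle cells. Its levels were 8.27, 8.72, 8.83, 8.35 and 8.62 in knockout lungs 1 to 5, against 9.36, 9.07, 9.43, 9.15 and 8.97 in control lungs 1 to 5. No knockout lung reached the lowest control lung, and both groups were spread wider than those of Lama5. The mean was 8.56 ± 0.24 in knockout and 9.20 ± 0.20 in control lungs (SD, n = 5 each), a change of -0.64 ± 0.12 (SE; limma adjusted p = 0.0107), or 64.2% of the control level. Between same-numbered lungs the difference ran from -1.10 to -0.34.

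Smooth muscle and pericyte markers had changes below 0 beside Itga7. Of 10 such markers, Acta2, Myh11, Tagln, Cnn1 and Des among them, 10 had a change below 0, as did 8604 of all 17919 genes. By limma 0 passed the test, and 1 had an unadjusted p under 0.05, against 13.5% of all genes. Their mean level per lung ran from 9.30 to 9.52 in knockout lungs, against 9.50 to 9.62 in control lungs, with a mean difference of -0.124. The largest change was that of Cnn1, calponin (-0.41, limma adjusted p = 0.123, and 0.0275 with the replicate block), while Myh11 had -0.12 and Acta2 -0.07. Pdgfrb, Cspg4, Notch3 and Rgs5, of the same list, had -0.02, -0.06, -0.02 and -0.18. The part of muscle cell content in the change of Itga7 was not tested.

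The epithelial laminin receptors did not pass the test. Itga6, which pairs with Itgb1 or Itgb4 and is given by lung because its groups were seen not to overlap, had 10.87, 10.87, 10.81, 10.82 and 10.88 in knockout lungs, against 10.93, 10.98, 10.90, 10.94 and 10.91 in control lungs. The groups did not overlap, but the change was small, -0.08 ± 0.04 (SE; 95% interval -0.17 to 0.006; limma adjusted p = 0.416). Itga3, whose product binds laminins that hold the alpha 3 or alpha 5 chain, had a change of -0.04 (95% interval -0.24 to 0.16). Itgb4, the hemidesmosome subunit, had -0.02 (-0.23 to 0.19). Itgb1, the beta subunit shared by the collagen, laminin and fibronectin receptors, ran from 11.21 to 11.36 in knockout lungs (median 11.31), against 11.34 to 11.43 in control lungs (median 11.41). It was lower in 5 of 5 same-numbered pairs, with a change of -0.10 ± 0.045 (SE; limma adjusted p = 0.357). The collagen receptors Itga1, Itga2 and Itga11 had changes of -0.08, -0.02 and -0.11, with adjusted p from 0.32 to 0.934.

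Itgb2 (chromosome 10), the beta subunit of the leukocyte integrins, fell. Its levels were 8.15, 8.05, 8.06, 7.92 and 8.01 in knockout lungs 1 to 5, against 8.31, 8.38, 8.23, 8.34 and 8.29 in control lungs 1 to 5. The groups did not overlap, with knockout 4 the lowest lung. The mean was 8.04 ± 0.08 in knockout and 8.31 ± 0.05 in control lungs (SD, n = 5 each), a change of -0.27 ± 0.05 (SE; limma adjusted p = 0.0124), or 82.8% of the control level.

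Of 12 leukocyte markers, 10 had a change below 0, 2 (Cd3e and Cd79a) had one above 0, and 0 passed limma's test. At an unadjusted p under 0.05 there were 5 leukocyte markers, against 13.5% of all genes. When the replicate number was added as a block, Laptm5, a lysosomal protein of blood cells, passed (-0.27, limma adjusted p = 0.0227, against 0.089 without the block). The mean of the list ran from 7.97 to 8.11 in knockout lungs, against 8.17 to 8.26 in control lungs, without overlap and with a mean difference of -0.125. Ptprc, the pan-leukocyte CD45 gene, had a change of -0.13 and Tyrobp, a myeloid adaptor, -0.21, while the T cell marker Cd3e lay below the 20th percentile of all values (6.11) in both groups. The part of leukocyte content in the change of Itgb2 was not tested.

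**Figure D3:**
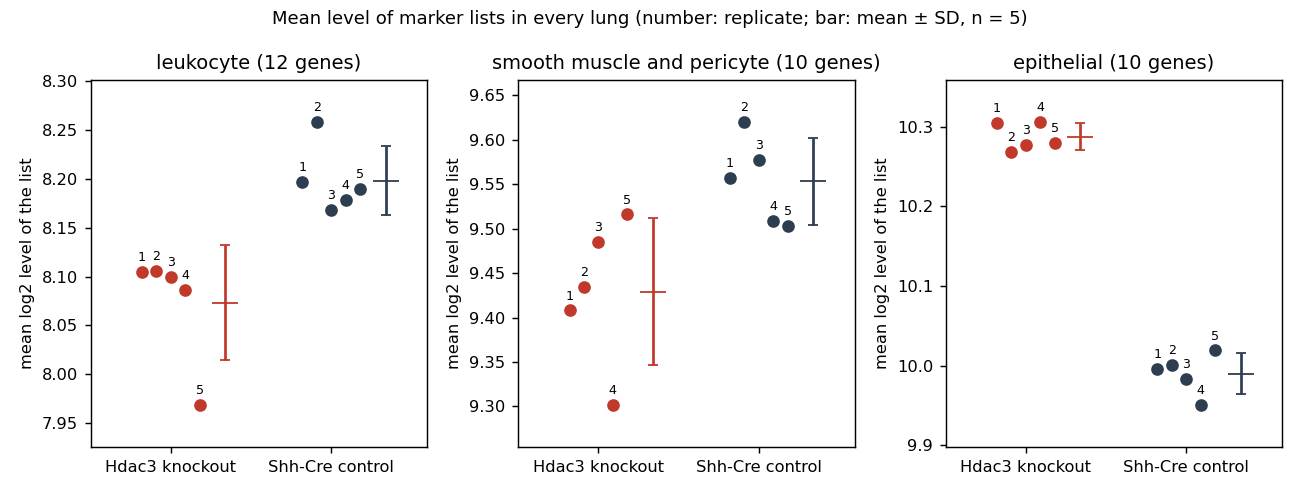
Mean log2 level of 3 marker lists in each knockout (red) and control lung (dark), numbered by replicate, with mean ± SD, n = 5; the axes do not start at 0. Leukocyte means are lower in all knockout lungs (7.97 to 8.11, against 8.17 to 8.26), smooth muscle means overlap (9.30 to 9.52, against 9.50 to 9.62) and epithelial means are higher in all knockout lungs (10.27 to 10.31, against 9.95 to 10.02).

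The alpha partners of Itgb2 did not pass the test. Itgal, which forms LFA-1 with Itgb2, had a change of -0.12 (95% interval -0.26 to 0.01; limma adjusted p = 0.441), and Itgax, CD11c, had -0.09 near the 20th percentile of all values. Itgam, CD11b, which is outside the 36 genes, had a change of 0.12 (limma adjusted p = 0.338), opposite in sign to Itgb2. Itgb7 and Itgae, subunits of the receptor by which lymphocytes bind E-cadherin, had 0.05 and 0.03. Itgae had the largest positive change of the alpha subunits, and its levels of 5.93, 6.01, 6.08, 5.98 and 6.13 in knockout lungs overlapped the 6.11, 5.99, 6.06, 5.99 and 5.82 of control lungs, with a mean below the 20th percentile. Itga4, a receptor for Vcam1, and Itga9 had changes of 0.01 and -0.13 (adjusted p = 0.981 and 0.461).

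The integrins that bind the RGD motif of fibronectin, vitronectin and latent TGF-beta gave 0 calls among 8 genes by limma, against 3.12% of all genes. At an unadjusted p under 0.05 there were also 0, against 13.5% of all genes. Itgav, the shared alpha subunit, had one of the narrowest intervals of the set (change 0.01, 95% interval -0.09 to 0.11). Itgb6, the epithelial subunit that activates latent TGF-beta, had -0.04 ± 0.15 (SE), the largest standard error of the set. Itgb8 had the largest positive change of the beta subunits, with 6.61, 6.86, 6.88, 6.71 and 6.86 in knockout lungs, against 6.66, 6.57, 6.74, 6.81 and 6.61 in control lungs. The groups overlapped and the change was 0.11 ± 0.07 (SE; limma adjusted p = 0.566). Itga5, the fibronectin receptor, and Itga8, the receptor for nephronectin on mesenchymal cells, each had -0.02. Itgb5 had -0.065, Itgb3 -0.04 and Itga2b, the platelet subunit, -0.06. Platelet markers (7 measured) gave 0 calls by limma and 0 at an unadjusted p under 0.05, beside the same shares of all genes.

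**Figure D4:**
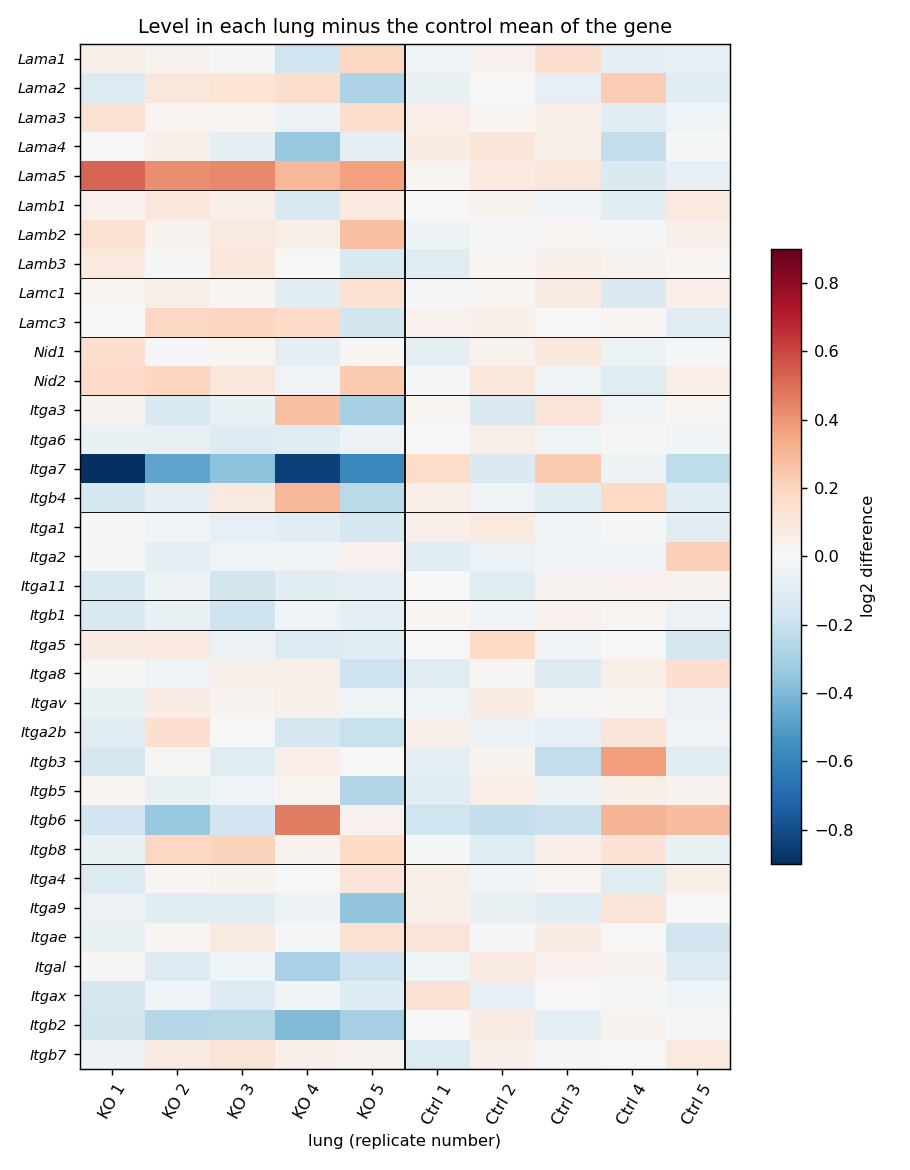
Log2 level of each of the 35 genes in each lung minus the control mean of that gene; columns are knockout lungs 1 to 5 and then control lungs 1 to 5, rows are ordered by role. The knockout and control columns do not overlap in the rows of Lama5, Itga7, Itgb2 and Itga6, and the row of Itgb6 is high in lung 4 of both groups.

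Genes that work with these proteins were taken from lists of 84 partners, of which 76 were measured. The lists were chosen with earlier results of these data known, so the shares below are no test of the partners as a set. Of the 76 partners 6 rose and 5 fell, 14.5% against 3.12% of all genes. With the replicate block 5 rose and 8 fell (2.28% and 2.44% of all genes). Without knockout 1, control 1 or control 4 the falls numbered 3, because the calls of Ltbp1 and Tgfb3 ended. The median change of the partners was -0.037.

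Basement membrane partners moved both ways, with 2 rises and 3 falls among 20. Hspg2, perlecan, ran from 10.73 to 10.88 in knockout lungs (median 10.80), against 10.39 to 10.55 in control lungs (median 10.44), and rose by 0.34 ± 0.05 (SE; limma adjusted p = 0.00269). Col18a1, a heparan sulfate collagen of the same sheets, rose by 0.39 ± 0.05 (SE; adjusted p = 0.000434). Fras1, a matrix protein beneath epithelial basement membranes whose loss causes blistering, ran from 8.45 to 9.04 in knockout lungs (median 8.83), against 9.45 to 9.74 in control lungs (median 9.68). It fell by 0.83 ± 0.10 (SE; limma adjusted p = 0.000754), to 56.4% of the control level. Its complex partner Frem2, named after its values were seen, had -0.42 (adjusted p = 0.0995, and 0.00676 with the replicate block). Col4a3 and Col4a4, collagen IV chains found together in basement membranes of lung and kidney, fell by 0.70 and 0.50 (limma adjusted p = 0.000169 and 0.00258). Col4a3 ran from 8.25 to 8.60 in knockout lungs, against 8.98 to 9.21 in control lungs, and Col4a4 from 7.81 to 8.26, against 8.57 to 8.69. Col4a1, Col4a2, Col4a5 and Col4a6, named after their values were seen, did not pass the test. Their changes were 0.03, 0.07, -0.15 and -0.07, with limma adjusted p from 0.124 to 0.896. The groups did not overlap for 7 of the 20 basement membrane partners, against 5.11% of all genes. These were the 5 called genes and the uncalled Agrn and Npnt, named after their values were seen.

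Among other laminin receptors and hemidesmosome genes, 2 of 10 rose and 0 fell by limma (1 of the 10 had an unadjusted p under 0.05 in that direction). Cd9, a tetraspanin that associates with laminin-binding integrins, ran from 10.79 to 10.94 in knockout lungs, against 10.36 to 10.60 in control lungs. It rose by 0.37 ± 0.05 (SE; limma adjusted p = 0.0021). Sdc1, an epithelial syndecan, rose by 0.34 ± 0.07 (SE; adjusted p = 0.0211), a call that held in 6 of 10 fits that left out 1 lung. Among 23 other integrin ligands, Ltbp1 and Tgfb3, a latent TGF-beta binding protein and a TGF-beta ligand, fell by 0.33 and 0.23 (limma adjusted p = 0.025 and 0.0274), and 0 rose by limma (1 at an unadjusted p under 0.05 in that direction). These calls held in 6 and 4 of those 10 fits. Among 23 adaptors and kinases, 5 had a change above 0 and 18 below. Src rose by 0.27 ± 0.05 (SE; limma adjusted p = 0.0102). Actn4, an actin crosslinker, rose by 0.19 (limma adjusted p = 0.0409, and 0.0571 with the replicate block). That call held in 2 of the 10 fits that left out 1 lung. Without the block, 0 adaptors fell by limma (5 at an unadjusted p under 0.05 in that direction). The block added the falls of Frem2, Ccn2 and Parvg, named after their values were seen.

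Of 10 epithelial markers, 8 had a change above 0 and 2 below. Krt8, Krt18 and Cldn7 rose, by 0.74, 1.34 and 0.32, and 0 fell by limma (0 at an unadjusted p under 0.05 in that direction). The median change was 0.168. Cdh1, the E-cadherin gene, is in this list and among the integrin ligands. The list mean ran from 10.27 to 10.31 in knockout lungs, against 9.95 to 10.02 in control lungs, and without the keratins Krt8 and Krt18, an omission chosen after seeing the data, from 9.83 to 9.90, against 9.74 to 9.79. Epcam had a change of 0.04 and Nkx2-1 of -0.04. The list means of alveolar type 1 cells (11.12 to 11.44 in knockout lungs, against 11.08 to 11.24 in control lungs) and type 2 cells (11.78 to 11.98, against 11.79 to 11.90) overlapped between the groups. Single markers did change. Of 10 type 1 markers, 9 had a change above 0, Pdpn fell by 0.52, and 0 rose by limma (2 at an unadjusted p under 0.05 in that direction). With the replicate block 1 type 1 marker passed as higher, Rtkn2 (0.40, limma adjusted p = 0.00862, against 0.327 without the block). Of 10 type 2 markers, 4 had a change above 0 and 6 below. Etv5 and Lpcat1 rose, by 0.61 and 0.34, and 0 fell by limma (1 at an unadjusted p under 0.05 in that direction). Of 5 basal cell markers Krt15 and Aqp3 rose, by 1.75 and 0.68, and Krt5 was not measured. Trp63, a defining basal gene, had -0.05, with means of 6.30 in knockout and 6.35 in control lungs. Krt14 and Ngfr had 0.13 and 0.15, and like Trp63 lay near the 20th percentile of all values (6.11). The basal list mean, to which Krt15 and Aqp3 gave the largest changes, ran from 7.04 to 7.35 in knockout lungs, against 6.63 to 6.76 in control lungs. Of 5 mesothelial markers, 2 had a change above 0 and 3 below. Msln and Krt19 rose, by 0.46 and 0.67, while Wt1 had -0.0007 and Lrrn4 -0.02. Upk3b had -0.26 (limma adjusted p = 0.102, and 0.0271 with the replicate block). The mesothelial list mean ran from 9.01 to 9.27 in knockout lungs, against 8.91 to 9.08 in control lungs. The part of epithelial and mesothelial content in the changes of Lama5, Cd9 and Sdc1 was not tested.

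**Figure D5:**
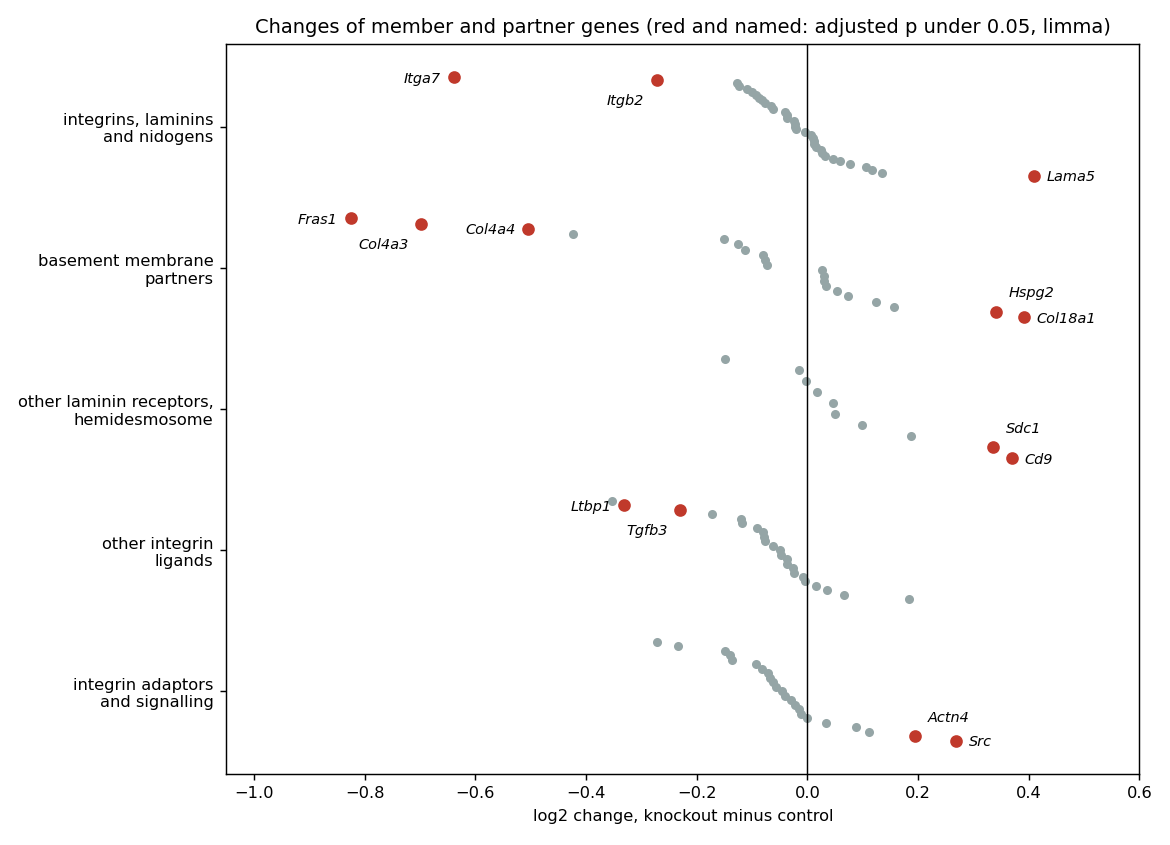
Log2 change (knockout minus control) of the 35 integrin, laminin and nidogen genes and of 4 partner lists, 1 point per gene, spread vertically within a list by rank. Named red points have a limma adjusted p under 0.05; they run from Fras1 at -0.83 to Lama5 at 0.41.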

How the data were processed

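Whole-lung RNA from 5 knockout and 5 control embryos was hybridised to 1 array per lung. The authors deposited log2 probe set levels, and the submitters' processing notes list oligo, RMA and limma without versions. Genome build and row filters were not given in the sources used here. No scanner file was analysed. Of 24888 probe sets, 18922 carried 1 gene symbol in the platform annotation, 1343 several and 4623 none. Where a gene had several, the probe set of highest mean represented it. Groups were compared with limma 3.58.1 in R 4.3.3 (lmFit and eBayes, two-sided, Benjamini-Hochberg over 17919 genes, threshold 0.05), which was tested on simulated data. There it called 36% of the genes given a log2 change of 0.25, 88% at 0.5 and 98% at 1. A gene that did not pass may therefore still have a change near 0.25. Intervals are 95% and unadjusted. Precision is limited by having 5 lungs a group: the median SE was 0.061 over the set and 0.066 over all genes. Alternatives changed the block, scaling, filter, floor, probe set rule, variance prior and lungs used.

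Members, lists and tests were chosen with earlier results of these data known. Lungs were written out for called members and for the largest rise and fall of each class (integrin alpha, integrin beta, laminin, nidogen), and up to 6 called genes of each partner list were named. Genes outside this rule are introduced as chosen after their values were seen. In a check of pairing, the deviations of same-numbered lungs correlated at 0.319, 0.154, 0.183, 0.485 and 0.36; between different numbers the median was -0.083 and the highest 0.33, and 7 of 10 lungs were best matched by their own number. The main fit, which gave the calls, was unpaired. Numbers were treated as pairs only in the replicate block fit and in differences between same-numbered lungs, because all 5 values exceeded 0.1. No label says what a number shares.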

Additional observations from a re-analysis of the deposited data

Results flagged for a closer look

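Among 72 groups of 5 lungs (the 35 genes and Hdac3 in each group), 6 held a lung whose gap to its nearest neighbour took up over 71% of the group's range; chance gives about 1 in 20. Knockout 5 was the lowest knockout lung for Itga9 (10.04, the next at 10.30). Knockout 4 was the lowest for Lamb1 (11.01, the next at 11.19). Control 4 was the highest control lung for Lama2 (10.12, the next at 9.89), and control 5 the highest for Itga2 (10.59, the next at 10.35). Control 1 was the lowest for Lamb3 (9.49, the next at 9.62), and control 2 the lowest for Itga11 (7.06, the next at 7.17). None of these 6 genes passed limma's test with or without any single lung.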

How the results depend on the processing

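Lama5, Itga7 and Itgb2 were called in all 10 fits that left out 1 lung (changes 0.376 to 0.437, -0.706 to -0.566 and -0.300 to -0.242) and in every other alternative run except those restricted by lung number. With only numbers 1 to 3, Lama5 kept its call (0.389, adjusted p = 0.011), and 0 members fell, Itga7 at -0.682 and Itgb2 at -0.219 (adjusted p = 0.0643 and 0.138). With only numbers 4 and 5, 0 members rose and 0 fell, with Lama5 at 0.439, Itga7 at -0.575 and Itgb2 at -0.353 (adjusted p = 0.239, 0.3 and 0.344); 0 partners rose and 0 fell, and 2 of all genes were called. The other 32 members were called in 0 of 21 fits. With the replicate block, which pairs lungs by number, 846 of all genes were called against 559 without it, and 8 partners fell against 5; the block changed no member's call. With numbers 1 to 3 against 4 and 5 as a block, 910 genes were called and 9 partners fell. Leaving out 1 lung gave 393 to 699 genes, 4 to 6 partners that rose and 3 to 5 that fell. Hdac3 ran from -0.351 to -0.275 without 1 lung, and lost its call at -0.258 (numbers 1 to 3) and -0.399 (numbers 4 and 5).

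Sign changes occurred among uncalled members. With only numbers 1 to 3 the changes were Lama1 -0.031, Lama2 0.078, Itga2 0.017, Itga8 0.075, Itga2b 0.045, Itgb3 0.008, Itga4 -0.042 and Itgae -0.047. With only numbers 4 and 5 they were Lamb1 -0.022, Lamb3 -0.089, Nid1 -0.011 and Itgb7 -0.005. Nid1 had -0.048 from its second probe set and -0.016 from the mean of both, and Itgb4 0.047 from a probe set shared with another gene name. Without 1 lung the ranges were Lama1 -0.031 to 0.061, Lama2 -0.044 to 0.065, Lamb3 -0.017 to 0.047, Lamc1 -0.009 to 0.057, Nid1 -0.018 to 0.042, Itga3 -0.117 to 0.025, Itgb4 -0.102 to 0.032, Itga2 -0.049 to 0.031, Itga5 -0.064 to 0.020, Itga8 -0.051 to 0.019, Itgav -0.003 to 0.027, Itgb3 -0.093 to 0.057, Itgb6 -0.162 to 0.041, Itga4 -0.020 to 0.040 and Itgae -0.011 to 0.061. The cause was not tested.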

Other observations

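Itgb6, the beta subunit of the epithelial TGF-beta-activating integrin, was singled out after its values were seen. Lungs 4 and 5 had 9.02 and 8.59 in the knockout group and 8.86 and 8.83 in the control group. Lungs 1, 2 and 3 had 8.38, 8.21 and 8.38 in the knockout group and 8.37, 8.34 and 8.36 in the control group. The lowest of the 4 lungs numbered 4 or 5 lay above the highest of the other 6. Lama4 was at its lowest in lung 4 of both groups (11.12 in knockout and 11.24 in control), as was Lama5 (11.20 and 10.78). The labels do not say what a number shares.

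Nephronectin (Npnt), a ligand of the Itga8 receptor in the basement membrane list, was singled out for non-overlapping groups. It ran from 11.78 to 11.93 in knockout lungs, against 11.94 to 12.04 in control lungs, a change of -0.13 ± 0.05 (SE) that limma did not call (adjusted p = 0.216). Itga8 itself overlapped between the groups. The groups did not overlap for 15 of the 76 measured partners, against 5.11% of all genes (2.66% lower). Agrn, in the same list as Npnt and also uncalled, was higher in every knockout lung (change 0.12, limma adjusted p = 0.195).

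A second probe set of Itgb4, annotated also to B230344G16Rik, averaged 6.16 in knockout and 6.11 in control lungs, and one of Itga4, annotated also to Cerkl, 6.05 and 5.99. Neither was used for its gene.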
